A study of Homo sapiens with 6 samples.

Results

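The genes described here encode the enzymes and transporters that take up glucose, break it down to pyruvate and lactate, admit pyruvate to the mitochondrion and run the pentose phosphate branch. They were chosen by name, as 34 human genes of these steps. Of the 34, 32 had a probe set carrying their symbol alone, and each was read on the probe set with the highest mean signal. SLC16A1 and SLC16A3, the 2 lactate exporters among the 34, had none and were not analysed here. PFKFB2 lay under the filter level of 13.0 signal units, so 31 of the 7178 genes tested on the arrays belong to this group. The arrays measured RNA of U87 cells, a human glioblastoma cell line, grown for 16 h in medium with 10% serum and glutamine. IRE1dn cells (3 arrays) express a dominant negative transgene of IRE1alpha, an endoplasmic reticulum stress sensor with kinase and RNase activity, and the labels name them as 1 clone, U87 IRE1.NCK DN. U87 ctrl cells (3 arrays) carry the corresponding empty plasmid, and the labels call them clones in the plural without assigning one to an array. The promoter that drives the transgene is not given in the sources used here. Clone and transgene cannot be told apart in this design. The labels do not state that the replicates are independent cultures. The p-values therefore cover only the variation among these arrays, which may be technical.

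Glycolysis turns glucose into pyruvate in the cytosol, and cells with high glycolytic flux reduce much of that pyruvate to lactate. Phosphofructokinase is its main controlled step, and the PFKFB enzymes make and degrade the sugar phosphate that activates it. The pyruvate dehydrogenase complex commits pyruvate to the mitochondrial tricarboxylic acid (TCA) cycle, and its kinases switch it off. The pentose phosphate pathway branches from the top of glycolysis and supplies NADPH and ribose. Many glycolytic genes are known targets of the hypoxia-inducible factors, and glioblastoma cells are known for high glucose use.

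Array medians lay between 18.4 and 21.03 signal units. IRE1dn replicate 3 stood apart: the mean of its brightest 1% of probe sets was 3832 units, against 2641 and 2882 units in the other IRE1dn arrays and 2554 to 2810 units in the ctrl arrays. Its 3′ to 5′ ratio of ACTB was 1.64, against 1.09 to 1.21 on the other 5 arrays, and its hybridisation spike-ins averaged 844 units, against 410 to 477 units on the others. ERN1, which encodes IRE1alpha, had 9.89, 10.5 and 12.9 units in IRE1dn cells, against 11.0, 14.0 and 11.9 units in ctrl cells. All 6 values are under or near the filter level, and whether the probes match the transgene is unknown, so ERN1 does not check the labels. XBP1, whose mRNA IRE1alpha splices, had 113, 125 and 130.4 units in IRE1dn cells, against 265, 229 and 203 units in ctrl cells (log2 change -0.90, SE 0.16; adjusted p = 0.0057, limma, all 11963 genes fitted). The groups did not overlap, and splicing was not read here. As a check of the cell type, the glioma-associated markers VIM and CD44 averaged 3825 ± 1152 and 1669 ± 200.4 units in IRE1dn cells, and 2787 ± 178 and 1663 ± 24.9 units in ctrl cells (SD, n = 3 each), while the astrocyte markers GFAP and S100B were under 2 units on every array. Of the 9 glial markers listed, 4 were above the filter level. SOX9, a glial lineage factor, had 274, 445 and 428 units in IRE1dn cells, against 39.3, 45.8 and 110.1 units in ctrl cells (log2 change 2.64, SE 0.36; adjusted p = 0.0017, limma, all 11963 genes fitted). OLIG2, an oligodendrocyte lineage factor, had 2.34, 3.45 and 4.46 units in IRE1dn cells, against 15.1, 24.9 and 9.20 units in ctrl cells (-1.74, SE 0.42; adjusted p = 0.019, same limma fit), and its mean lay under the filter level. On the probe sets read, these 2 lineage markers thus changed in opposite directions, but only 1 of the 2 probe sets of OLIG2 had a negative difference. The part of these markers in the results below was not tested. Of the endothelial and immune markers, 0 of the 7 with a probe set were above the filter level by their mean. PECAM1, an endothelial marker, had 3.03, 4.69 and 5.80 units in IRE1dn cells, against 11.5, 7.46 and 17.3 units in ctrl cells (limma adjusted p = 0.085, all 11963 genes fitted). KDR, another, had 13.8 units in ctrl replicate 2. Of the 3 neuronal markers with a probe set, 1 was above it, SNAP25. SNAP25 had 228, 256 and 282 units in IRE1dn cells, against 211, 110 and 262 units in ctrl cells. SYT1, another neuronal marker, lay under the filter level by its mean but had 43.4 units in ctrl replicate 3.

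The glucose transporter gene SLC2A1, the phosphofructokinase genes PFKL and PFKP, ALDOC, PFKFB3, 5 of 6 genes of lower glycolysis and the kinase genes PDK1 and PDK3 were higher in IRE1dn cells. The phosphofructokinase gene PFKM, the pyruvate dehydrogenase subunit genes PDHA1 and DLAT, and the pentose phosphate genes PGD and TALDO1 were lower. Of the 31 genes, 12 were higher and 5 lower past an adjusted p of 0.05 in limma's test across all 7178 genes. That is 38.7% and 16.1% of the group, where 17.9% of all genes tested were called higher and 16.5% lower, so the share of decreases is near that of all genes. In 14 of the 31 every IRE1dn array lay above every ctrl array, and in 6 every IRE1dn array lay below (45.2% and 19.4%, against 26% and 24.2% of all genes tested). In both directions together, 17 of the 31 passed the threshold, against 34.4% of all genes tested, and 20 did not overlap, against 50.2%. The median log2 change of the 31 was 0.47, and that of all genes tested was 0.01. The number higher was 7 without IRE1dn replicate 2, without IRE1dn replicate 3 or without ctrl replicate 2. The number lower was 3 without IRE1dn replicate 1 and 2 without IRE1dn replicate 2.

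**Figure D1:**
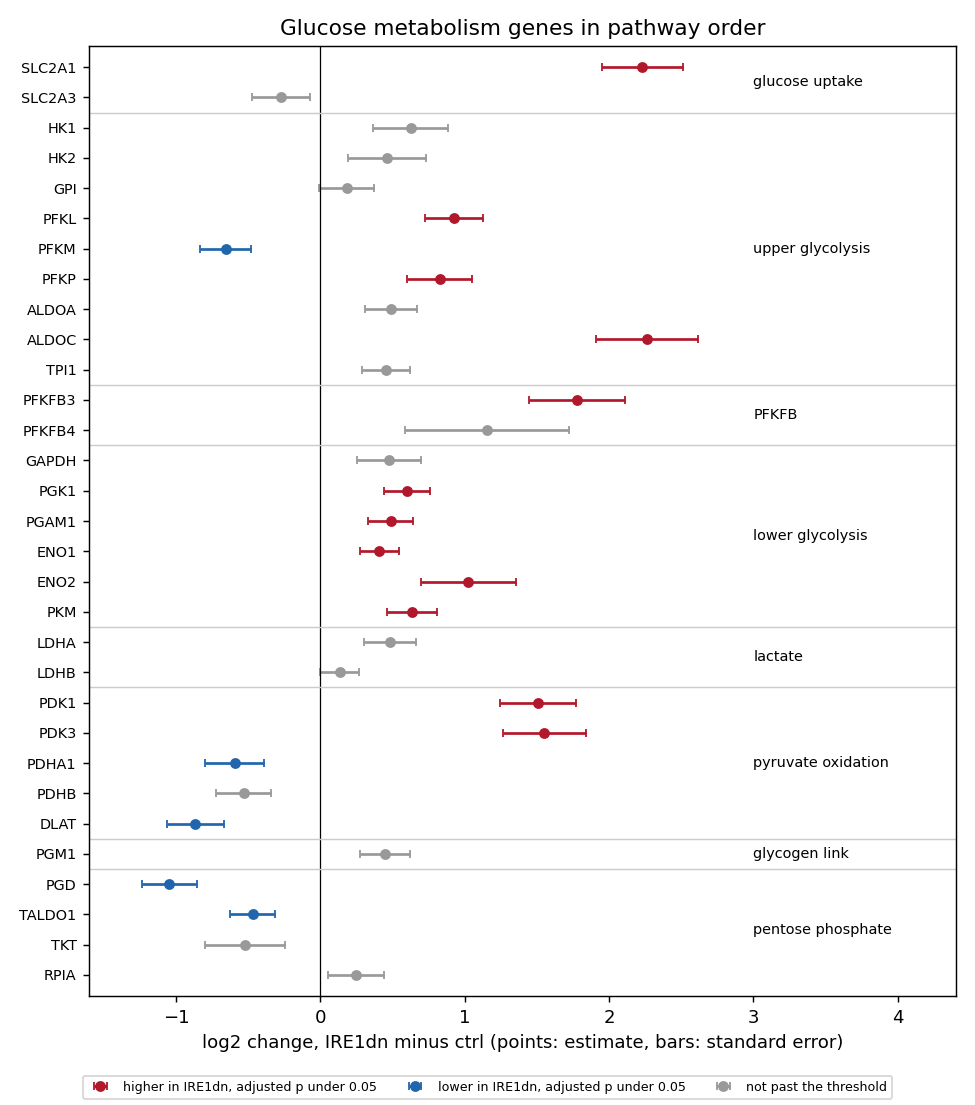
Log2 change of each tested gene, IRE1dn minus ctrl, on the x axis, with genes in pathway order down the page; points are limma estimates from 3 arrays per group and bars their standard errors. SLC2A1, ALDOC, PFKFB3, PDK1 and PDK3 stand furthest to the right, and PGD and DLAT furthest to the left.

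The 3 largest increases among the 31 were those of ALDOC, SLC2A1 and PFKFB3, and the largest decrease was that of PGD. Their promoters are shown because the hypoxia response core, ACGTG or GCGTG on either strand, can be read in them. The windows run from 250 bases before to 50 bases after each annotated start (RefSeq, GRCh38.p14), written 5′ to 3′ along the gene, with the cores in capitals.
ALDOC, chr17:28576846-28577145, minus strand: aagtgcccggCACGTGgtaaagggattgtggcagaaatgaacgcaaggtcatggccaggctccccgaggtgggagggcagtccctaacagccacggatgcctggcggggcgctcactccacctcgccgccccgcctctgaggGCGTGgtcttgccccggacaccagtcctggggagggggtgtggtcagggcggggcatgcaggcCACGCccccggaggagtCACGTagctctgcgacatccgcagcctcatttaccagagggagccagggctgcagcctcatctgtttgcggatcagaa
SLC2A1, chr1:42958819-42959118, minus strand: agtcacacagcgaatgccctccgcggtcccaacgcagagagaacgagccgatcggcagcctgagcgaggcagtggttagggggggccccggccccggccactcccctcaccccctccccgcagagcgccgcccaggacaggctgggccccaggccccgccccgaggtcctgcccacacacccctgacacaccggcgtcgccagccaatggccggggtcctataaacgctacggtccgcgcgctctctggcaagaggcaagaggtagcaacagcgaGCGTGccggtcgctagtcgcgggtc
PFKFB3, start 1 of 2, chr10:6144671-6144970, plus strand: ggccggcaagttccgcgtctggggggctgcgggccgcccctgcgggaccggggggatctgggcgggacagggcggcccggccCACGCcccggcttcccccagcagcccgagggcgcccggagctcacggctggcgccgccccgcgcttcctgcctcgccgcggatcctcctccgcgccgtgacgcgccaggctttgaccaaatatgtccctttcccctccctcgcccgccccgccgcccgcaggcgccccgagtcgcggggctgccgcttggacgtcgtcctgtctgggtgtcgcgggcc
PFKFB3, start 2 of 2, chr10:6202682-6202981, plus strand: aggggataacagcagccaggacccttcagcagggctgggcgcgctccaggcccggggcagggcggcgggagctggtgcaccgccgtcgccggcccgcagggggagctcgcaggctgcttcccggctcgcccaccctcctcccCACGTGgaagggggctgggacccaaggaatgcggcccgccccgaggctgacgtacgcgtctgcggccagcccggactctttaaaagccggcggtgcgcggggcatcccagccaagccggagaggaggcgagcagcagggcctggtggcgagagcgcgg
PGD, chr1:10398814-10399113, plus strand: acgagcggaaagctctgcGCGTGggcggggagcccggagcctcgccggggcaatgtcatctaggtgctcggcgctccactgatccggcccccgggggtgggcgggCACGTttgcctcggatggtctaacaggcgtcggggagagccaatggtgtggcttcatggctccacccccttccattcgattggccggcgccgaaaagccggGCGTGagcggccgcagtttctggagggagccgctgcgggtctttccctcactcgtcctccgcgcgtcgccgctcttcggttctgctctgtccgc
The ALDOC window held cores in 4 separate stretches, the first of them the E-box CACGTG, which reads as a core on both strands. The SLC2A1 window held 1, downstream of the start, and the PFKFB3 windows held 1 stretch each, the second again a CACGTG. The PGD window held 3. A core was therefore present both where the gene was higher and where it was lower in IRE1dn cells. Of the 34 genes, 31 had a promoter entry, and 28 of these had a core in at least 1 window, against 52.4% of all 27305 genes in the table. By window the share was 64.4% of 59, against 48.4% of 35116. CACGTG, which also contains the core ACGTG, was in 7 of the 59 windows (11.9%), against 7.26% of all. Several windows belong to 1 gene, and these genes had more windows per gene than all genes, which makes a core in at least 1 window easier to find. A match of these letters is a description of the sequence only.

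At the step of glucose entry, RNA of SLC2A1, which encodes the widely expressed facilitative transporter GLUT1, was higher in IRE1dn cells. Uptake itself was not measured. SLC2A1 had 201, 273 and 366 units in IRE1dn cells, against 56.7, 41.0 and 77.5 units in ctrl cells. Every IRE1dn array was above every ctrl array, and the log2 change was 2.23 (SE 0.28; limma adjusted p = 0.00052). Its second probe set, dimmer and only above the filter level in IRE1dn cells, showed the same direction (20.9, 21.3 and 22.0 units, against 0.657, 2.75 and 5.13 units). SLC2A3, the high-affinity neuronal-type transporter GLUT3, had 106, 131 and 85.8 units in IRE1dn cells, against 122, 141 and 123 units in ctrl cells. The groups overlapped, and the log2 change of SLC2A3 was -0.27 (95% interval -0.73 to 0.18; limma adjusted p = 0.32). All 3 of its probe sets had negative differences. Of 12 other glucose transporters listed, 10 had a probe set, 2 were tested and 0 passed the threshold.

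Both hexokinases, which trap glucose in the cell as its phosphate, missed the threshold. HK1 had 531, 972 and 1186 units in IRE1dn cells, against 534, 575 and 542 units in ctrl cells. IRE1dn replicate 1 was thus at the ctrl level and the other IRE1dn arrays were well above it. The log2 change of HK1 was 0.62 (SE 0.26; limma adjusted p = 0.089), and without IRE1dn replicate 1 it was 0.96 (adjusted p = 0.0071), without IRE1dn replicate 3 it was 0.38 (0.31). HK2, the inducible hexokinase, had 161, 174 and 135 units in IRE1dn cells, against 82.3, 99.7 and 173 units in ctrl cells. Here ctrl replicate 3 alone lay within the IRE1dn range. The HK2 change of 0.46 (adjusted p = 0.21) became 0.77 without ctrl replicate 3 (adjusted p = 0.014) and 0.24 without ctrl replicate 1 (0.49). GPI, which converts glucose phosphate to fructose phosphate, averaged 505 ± 71.8 units in IRE1dn cells and 448 ± 95.5 units in ctrl cells (SD, n = 3 each; log2 change 0.18, 95% interval -0.25 to 0.61). It ranged from 0.08 without ctrl replicate 1 to 0.35 without ctrl replicate 3 and never passed the threshold.

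The 3 phosphofructokinase genes did not move together. PFKL, the liver-type subunit, had 199, 182 and 165 units in IRE1dn cells, against 75.1, 101 and 112 units in ctrl cells (log2 change 0.93, SE 0.20; limma adjusted p = 0.0073). PFKP, the platelet-type subunit, had 1012, 989 and 987 units in IRE1dn cells, against 390, 590 and 767 units in ctrl cells (0.83, SE 0.22; adjusted p = 0.019). The IRE1dn arrays were nearly equal for PFKP while the ctrl arrays spread widely, and the groups did not overlap. PFKM, the muscle-type subunit, was the only upper glycolytic gene called lower: it had 135, 169 and 180 units in IRE1dn cells, against 252, 237 and 271 units in ctrl cells (-0.65, SE 0.18; adjusted p = 0.019). The PFKL call held in all 18 alternatives. The PFKP call ended without any single IRE1dn array (adjusted p of 0.057 to 0.060, with the change at 0.81 to 0.83), and its change was 0.56 without ctrl replicate 1. That of PFKM ended without IRE1dn replicate 1 (-0.53, adjusted p = 0.076) or 2 (-0.69, 0.061).

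Aldolase, which splits the hexose bisphosphate, has 2 genes in this group. ALDOC, the brain-type aldolase, had 415, 406 and 377 units in IRE1dn cells, against 80.9, 44.8 and 149 units in ctrl cells. Its log2 change of 2.26 (SE 0.35; limma adjusted p = 0.0015) was the largest of the 31, and its lowest IRE1dn array was above the highest ctrl array. ALDOA, the ubiquitous form, had 2268, 2497 and 3366 units in IRE1dn cells, against 1690, 1777 and 2283 units in ctrl cells. The groups overlapped narrowly, and ALDOA changed by 0.49 (SE 0.18; adjusted p = 0.060). It passed without IRE1dn replicate 1 (0.61, adjusted p = 0.049) or ctrl replicate 3 (0.62, 0.029), and without IRE1dn replicate 3 it was 0.32 (0.16). TPI1, which interconverts the triose phosphates, averaged 2244 ± 191 units in IRE1dn cells and 1658 ± 355 units in ctrl cells (SD, n = 3 each; 0.45, adjusted p = 0.059). Its IRE1dn arrays all lay above the ctrl arrays, by little, and TPI1 passed without ctrl replicate 3 (0.62, adjusted p = 0.012). Of its 3 probe sets, 2 gave the same direction, and the third, the one not marked as possibly binding related transcripts, gave -0.75 (adjusted p = 0.059) at 13.2 to 24.4 units in IRE1dn cells, against 30.7 to 36.4 units in ctrl cells.

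**Figure D2:**
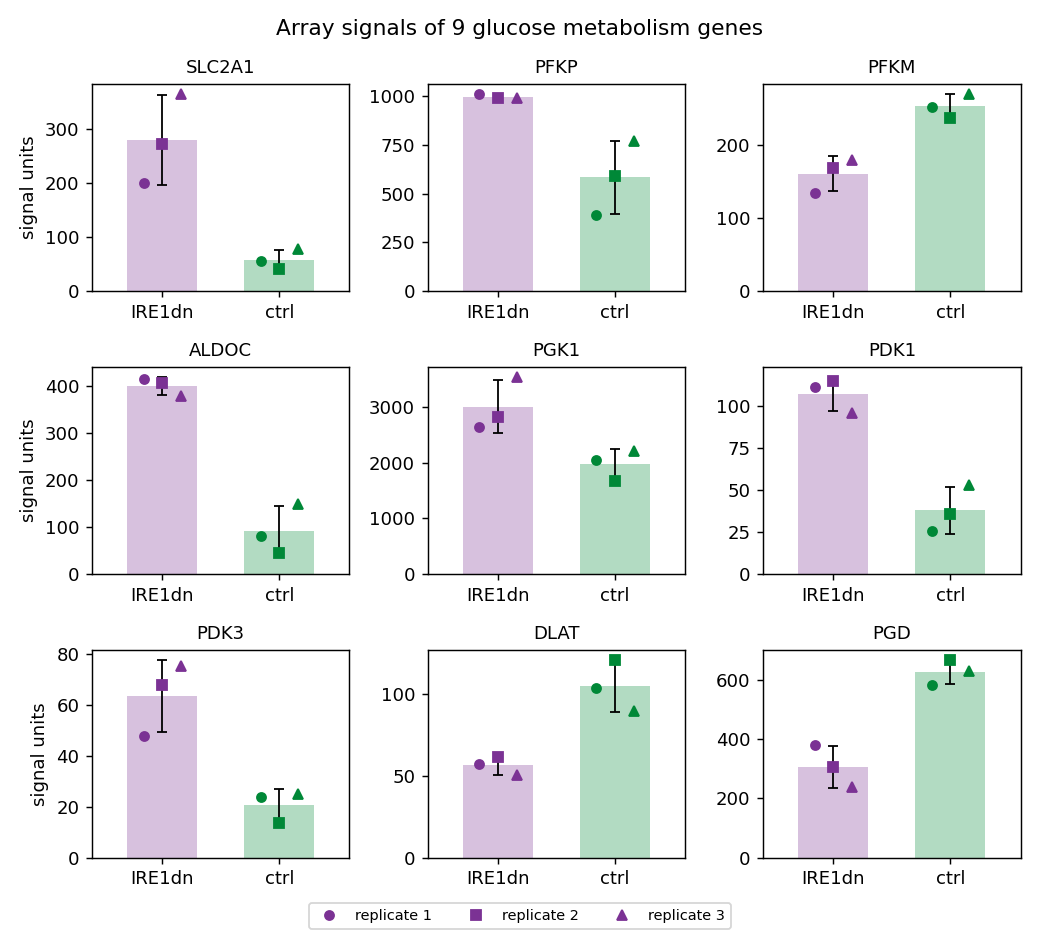
Array signals in signal units for 9 genes, IRE1dn left of ctrl in each panel; bars are means, error bars SDs of 3 arrays, and symbols the replicates. SLC2A1, PFKP, ALDOC, PGK1, PDK1 and PDK3 are higher in all 3 IRE1dn arrays than in any ctrl array, and PFKM, DLAT and PGD are lower.

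Of the PFKFB enzymes, PFKFB3, known for a strong kinase over phosphatase activity, had 396, 277 and 287 units in IRE1dn cells, against 101, 50.9 and 145 units in ctrl cells. No IRE1dn array overlapped the ctrl range, and the log2 change of PFKFB3 was 1.78 (SE 0.34; limma adjusted p = 0.0039). PFKFB4 had 32.6, 21.3 and 19.7 units in IRE1dn cells, against 12.7, 2.42 and 23.7 units in ctrl cells. The ctrl arrays straddled the filter level and the groups overlapped. The PFKFB4 change of 1.16 (SE 0.57; adjusted p = 0.14) was 0.42 without ctrl replicate 2, 1.73 without ctrl replicate 3 (adjusted p = 0.022) and 0.54 with a pseudocount of 16. PFKFB2, the heart-type enzyme, had 10.8, 5.88 and 5.07 units in IRE1dn cells, against 0.963, 3.58 and 4.79 units in ctrl cells, all under the filter level. Its 2 probe sets pointed in opposite directions, and in a fit without the filter it changed by 0.93 (SE 0.44; adjusted p = 0.18). TIGAR, whose product degrades the same activator, was the only one of 5 other tested glycolytic genes past the threshold. That is 20% lower, near the 16.5% of all genes tested. TIGAR had 124, 122 and 113 units in IRE1dn cells, against 399, 289 and 225 units in ctrl cells (-1.30, SE 0.22; adjusted p = 0.0024).

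In lower glycolysis 5 of 6 genes were higher in IRE1dn cells past the threshold and 0 lower (83.3% and 0%, against 17.9% and 16.5% of all genes tested). All 6 estimates were positive, between 0.41 and 1.03, and their median was 0.54. PGK1, the first ATP-yielding enzyme, had 2644, 2820 and 3535 units in IRE1dn cells, against 2044, 1669 and 2206 units in ctrl cells (0.60, SE 0.16; limma adjusted p = 0.017). PGAM1, phosphoglycerate mutase, averaged 2040.3 ± 266 units in IRE1dn cells and 1456 ± 197 units in ctrl cells (SD, n = 3 each; 0.49, adjusted p = 0.036). For both genes every IRE1dn array was above every ctrl array. PKM, pyruvate kinase, had 1957, 1905 and 2523 units in IRE1dn cells, against 1424, 1121 and 1575 units in ctrl cells (0.63, SE 0.17; adjusted p = 0.019). The probe set was not split into the M1 and M2 splice forms here. ENO1, the ubiquitous enolase, had 3270, 3491 and 4221 units in IRE1dn cells, against 2646, 2634 and 2961 units in ctrl cells (0.41, SE 0.14; adjusted p = 0.042). ENO2, the neuronal enolase, had 394, 300.1 and 282 units in IRE1dn cells, against 130, 106 and 283 units in ctrl cells (1.03, SE 0.33; adjusted p = 0.036). Its ctrl replicate 3 reached the lowest IRE1dn value, so the groups overlapped, and the ENO2 change was 1.44 without that array.

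GAPDH, often used as a reference gene, had 2859, 3465 and 5536 units in IRE1dn cells, against 3094, 2437 and 2721 units in ctrl cells. IRE1dn replicate 1 lay within the ctrl range and replicate 3 far above it. The log2 change of GAPDH was 0.47 (SE 0.22; limma adjusted p = 0.12), 0.20 without IRE1dn replicate 3 (0.33) and 0.68 without IRE1dn replicate 1 (0.045). The array's own GAPDH control probe set for the 5′ end had 3628, 4092 and 5832 units in IRE1dn cells, against 3259, 3134 and 3497 units in ctrl cells. There IRE1dn replicate 1 lay above the ctrl range, and replicate 3 was again the highest array. LDHA, the lactate dehydrogenase subunit linked to lactate production, had 3252, 3288 and 5043 units in IRE1dn cells, against 2650, 2475 and 3013 units in ctrl cells. The groups did not overlap, and LDHA changed by 0.48 (SE 0.18; adjusted p = 0.064), or by 0.27 without IRE1dn replicate 3 (0.12). LDHB, the heart-type subunit, averaged 2361 ± 311 units in IRE1dn cells and 2141 ± 59.1 units in ctrl cells (SD, n = 3 each; 0.13, 95% interval -0.17 to 0.43). Its 2 probe sets differed in sign.

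IRE1dn replicate 3, the array with the brightest top 1% of probe sets, was the highest of all 6 arrays for 7 of the 8 genes of lower glycolysis and lactate dehydrogenase, the exception being ENO2. The part of that array's brightness in these results was not tested apart from the following values. After quantile normalization, which gives all arrays the same distribution, the log2 change of ENO1 was 0.21 (limma adjusted p = 0.12), that of GAPDH 0.20 and that of LDHA 0.26. PGK1 (0.48, 0.0068), PGAM1 (0.45, 0.014), PKM (0.60, 0.0070) and ENO2 (1.00, 0.040) stayed past the threshold there. Without IRE1dn replicate 3, PGK1 was still past the threshold (0.48, adjusted p = 0.046), and PGAM1 (0.39, 0.099), ENO1 (0.30, 0.078), ENO2 (1.12, 0.079) and PKM (0.51, 0.062) were not. Other single arrays also ended these calls. PGK1 missed the threshold without IRE1dn replicate 2 (0.64, 0.051) or ctrl replicate 2 (0.49, 0.060), and PKM missed it without ctrl replicate 2 (0.49, 0.061). PGAM1 missed it without IRE1dn replicate 2 (0.51, 0.096), ctrl replicate 1 (0.50, 0.062) or ctrl replicate 2 (0.38, 0.11). ENO1 passed only without IRE1dn replicate 1 among the single arrays left out, with adjusted p of 0.0501 to 0.11 otherwise. ENO2 passed only without ctrl replicate 3, with 0.079 to 0.12 otherwise. With all arrays kept, the calls of PGAM1, ENO1 and ENO2 also ended without the filter (limma adjusted p of 0.078, 0.12 and 0.058). The same calls ended without limma's intensity trend (0.079, 0.11 and 0.051). Scaling to equal medians ended those of PGAM1 (0.094) and ENO1 (0.14). The mean of all probe sets ended those of ENO1 (0.27) and PKM (0.058), and the replicate block that of ENO1 (0.055).

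At the fate of pyruvate, PDK1 and PDK3 were higher in IRE1dn cells, while DLAT and PDHA1 of the complex were lower and PDHB did not pass the threshold. PDK1, a pyruvate dehydrogenase kinase, had 111, 115 and 95.8 units in IRE1dn cells, against 25.5, 35.6 and 52.9 units in ctrl cells (log2 change 1.51, SE 0.26; limma adjusted p = 0.0027). PDK3, a second kinase of the family, had 47.6, 67.6 and 75.1 units in IRE1dn cells, against 23.6, 13.7 and 24.8 units in ctrl cells (1.55, SE 0.29; adjusted p = 0.0036). Neither kinase had overlapping groups, and both calls held in every alternative in which they were tested. PDK3 was 0.92 with the mean of its 3 probe sets, which all pointed the same way. PDK2, a further kinase from the wider list, had a negative estimate and did not pass (-0.62, adjusted p = 0.079), though its IRE1dn arrays all lay below the ctrl arrays. PDK2 was named after its values were seen, and only 1 of its 2 probe sets had a negative difference.

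DLAT, the acetyltransferase core of the pyruvate dehydrogenase complex, had 57.3, 61.7 and 50.6 units in IRE1dn cells, against 104, 121 and 89.8 units in ctrl cells (log2 change -0.87, SE 0.20; limma adjusted p = 0.0091). All 3 of its probe sets gave the same direction. PDHB, the beta subunit of the decarboxylase, had 518, 543 and 601 units in IRE1dn cells, against 1057, 677 and 716 units in ctrl cells. The groups did not overlap, but the PDHB change of -0.53 (SE 0.19) missed the threshold (adjusted p = 0.054). It passed without ctrl replicate 2 (-0.65, 0.038) or 3 (-0.61, 0.043), and was -0.33 without ctrl replicate 1 (0.11). PDHA1, the alpha subunit that the kinases phosphorylate, had 334, 251 and 217 units in IRE1dn cells, against 338, 465 and 401 units in ctrl cells (-0.59, SE 0.20; adjusted p = 0.048). The groups were separated by only the gap between IRE1dn replicate 1 and ctrl replicate 1. Its second, dimmer probe set went the other way in value (0.12 when it was used alone, adjusted p = 0.73). The PDHA1 call also ended without IRE1dn replicate 2 (-0.56, 0.15) or 3 (-0.45, 0.19), or without ctrl replicate 2 (-0.48, 0.13) or 3 (-0.59, 0.068). With all arrays kept, it ended without the filter (limma adjusted p = 0.066), without the intensity trend (0.069) and with the replicate block (0.069). Quantile normalization (0.051) and the mean of its probe sets (-0.23, 0.32) ended it too. DLD, the dehydrogenase subunit shared with other complexes and no member of the 34, had 475, 480 and 412 units in IRE1dn cells, against 914, 781 and 630.2 units in ctrl cells (-0.75, SE 0.17; adjusted p = 0.0095). MPC2, a subunit of the mitochondrial pyruvate carrier, changed by -0.67 (SE 0.19; adjusted p = 0.024), a call that ended without IRE1dn replicate 2 (0.080) or 3 (0.094), or ctrl replicate 1 (0.056) or 3 (0.055). Of 8 tested genes of the wider pyruvate list, DLD and MPC2 were the only 2 past the threshold, both lower (25%, against 16.5% of all genes tested).

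The genes of the TCA cycle list were mostly lower in value. This list also holds the cytosolic enzymes ACO1, IDH1 and MDH1, which lie outside the mitochondrial cycle and count in the numbers that follow. Of 17 tested, 6 were lower and 1 higher past the threshold, and 14 had negative estimates, with a median log2 change of -0.43. The calls make 35.3% lower and 5.88% higher, against 16.5% and 17.9% of all genes tested. The number lower was 4 to 8 over the alternatives, and 1 was higher in each. ACO1, the cytosolic aconitase, had 161, 192 and 186 units in IRE1dn cells, against 467, 537 and 274 units in ctrl cells (-1.19, SE 0.25; limma adjusted p = 0.0058). IDH1, the cytosolic NADP-dependent isocitrate dehydrogenase, averaged 384 ± 50.5 units in IRE1dn cells and 832 ± 73.7 units in ctrl cells (SD, n = 3 each; -1.12, adjusted p = 0.0011). These 2 largest decreases of the list are of cytosolic enzymes, and the other 4 decreases, of mitochondrial enzymes, lay between -0.79 and -0.61. IDH2, the mitochondrial NADP-dependent isocitrate dehydrogenase, went the other way, with 493, 434 and 449 units in IRE1dn cells, against 155, 136 and 150.5 units in ctrl cells (1.63, SE 0.16; adjusted p = 0.00015).

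**Figure D3:**
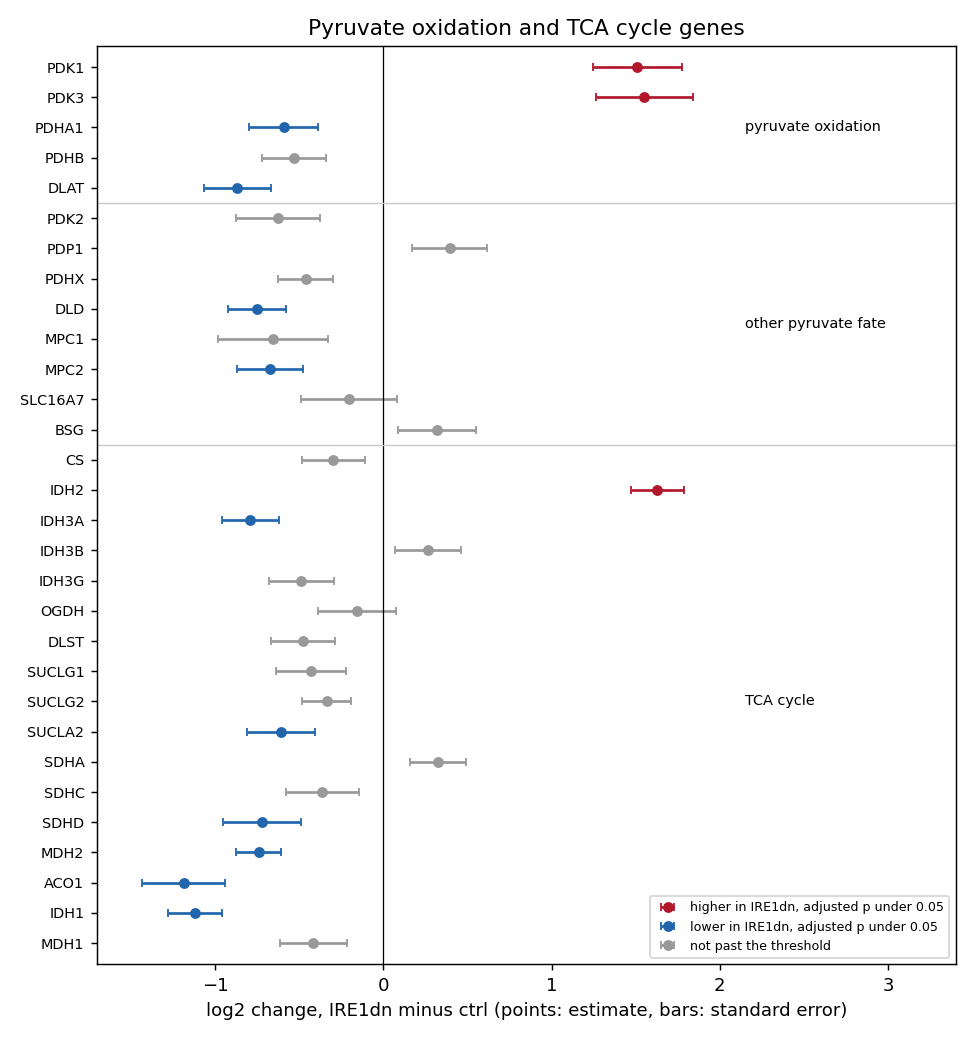
Log2 change, IRE1dn minus ctrl, of the pyruvate dehydrogenase genes and kinases, other pyruvate genes and the TCA cycle list with its cytosolic enzymes. Points are limma estimates from 3 arrays per group and bars standard errors. PDK1, PDK3 and IDH2 are the 3 genes called higher, and most other points lie left of 0.

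The pentose phosphate enzymes were lower in value or did not pass. PGD, phosphogluconate dehydrogenase of the oxidative branch, had 379, 304 and 237 units in IRE1dn cells, against 583, 666 and 627 units in ctrl cells. All IRE1dn arrays were far below the ctrl arrays, and the log2 change of -1.05 (SE 0.19; limma adjusted p = 0.0033) held in all 18 alternatives. TALDO1, transaldolase of the non-oxidative branch, had 692, 720.4 and 870.2 units in IRE1dn cells, against 927, 1069 and 1166 units in ctrl cells (-0.47, SE 0.16; adjusted p = 0.042). The TALDO1 call ended without IRE1dn replicate 1 (-0.41, 0.13) or 2 (-0.43, 0.16), or ctrl replicate 2 (-0.46, 0.088) or 3 (-0.39, 0.10). With all arrays kept, it ended without the filter (limma adjusted p = 0.070) and without the intensity trend (0.080). TKT, transketolase, had 1115, 653 and 764 units in IRE1dn cells, against 876, 1057 and 1777 units in ctrl cells. The groups overlapped, ctrl replicate 3 was far above the others, and TKT changed by -0.52 (95% interval -1.14 to 0.10; adjusted p = 0.17), or by -0.23 without ctrl replicate 3. RPIA, ribose phosphate isomerase, averaged 101 ± 9.26 units in IRE1dn cells and 85.2 ± 13.2 units in ctrl cells (SD, n = 3 each; 0.25, 95% interval -0.19 to 0.68), and 0.12 without ctrl replicate 1.

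Of 7 tested genes of the wider pentose list, 3 were higher and 1 lower (42.9% and 14.3%, against 17.9% and 16.5% of all genes tested). PRPS1, which uses the pathway's ribose phosphate for nucleotide synthesis, had 620, 692 and 921 units in IRE1dn cells, against 244, 256 and 262 units in ctrl cells (log2 change 1.52, SE 0.18; limma adjusted p = 0.00036). H6PD, the endoplasmic reticulum enzyme that runs the oxidative steps there, had 59.99, 57.1 and 52.9 units in IRE1dn cells, against 24.2, 20.8 and 35.1 units in ctrl cells (1.07, SE 0.24; adjusted p = 0.0089). RBKS, ribokinase, was the gene called lower (-1.44, SE 0.31; adjusted p = 0.0074), and was at 12.5 to 15.1 units in IRE1dn cells, near the filter level, against 26.4 to 61.3 units in ctrl cells. PGM1, which links glucose phosphate to glycogen, had 749, 742 and 860 units in IRE1dn cells, against 710.1, 513 and 517 units in ctrl cells. The groups did not overlap, and PGM1 changed by 0.45 (SE 0.17; adjusted p = 0.069), passing without ctrl replicate 1 (0.60, 0.016). Of 10 tested genes of glycogen metabolism, 4 were higher and 2 lower (40% and 20%, against 17.9% and 16.5% of all genes tested), so the share of decreases is near that of all genes. UGP2, which makes the activated glucose for glycogen, changed by 0.98 (SE 0.18; adjusted p = 0.0034). The glycogen primer GYG1 changed by -1.08 (SE 0.15; adjusted p = 0.00094) and the phosphorylase kinase subunit PHKA1 by -0.95 (SE 0.25; adjusted p = 0.016). The PHKA1 call ended without IRE1dn replicate 2 (0.052) or 3 (0.061). Of 4 tested gluconeogenesis genes, 1 was higher, PC, pyruvate carboxylase (0.71, SE 0.24; adjusted p = 0.046). That 1 gene is 25% of the list, against 17.9% of all genes tested. The PC call ended without any single IRE1dn array (0.084 to 0.14), ctrl replicate 2 (0.11) or ctrl replicate 3 (0.077). With all arrays kept, it ended without the filter (limma adjusted p = 0.099) and with the replicate block (0.067). Quantile normalization (0.071) and scaling to equal medians (0.070) ended it too.

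Whether isozymes of 1 step changed unequally was tested on their log2 ratio in each array, with an exact two-sided permutation test over the 6 arrays, where 3 against 3 cannot go below p = 0.1. The members of a pair sit on different probe sets, so only the difference of a ratio between the groups is given. In 4 of the 8 pairs every IRE1dn array lay above every ctrl array. Among single genes tested, the groups did not overlap for 50.2%, in either direction. The share of pairs is thus near that of single genes. The ratio of SLC2A1 over SLC2A3 was higher in IRE1dn cells by 2.504 on the log2 scale, that of ALDOC over ALDOA by 1.77, that of PFKP over PFKM by 1.48 and that of LDHA over LDHB by 0.35. Each of these 4 had the smallest exact permutation p, 0.1, and 0.2 after Benjamini-Hochberg adjustment over the 8 pairs. After quantile normalization the LDHA over LDHB difference was 0.21 (exact permutation p = 0.2), and the ratios of SLC2A1, ALDOC and PFKP kept p = 0.1. The groups overlapped for ENO2 over ENO1 (0.62, exact p = 0.3), PFKFB4 over PFKFB3 (-0.62, exact p = 0.3), HK2 over HK1 (-0.16, exact p = 0.8) and PDK1 over PDK3 (-0.04, exact p = 0.9). A ratio shows unequal change, not that 1 isozyme of the pair did not change.

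**Figure D4:**
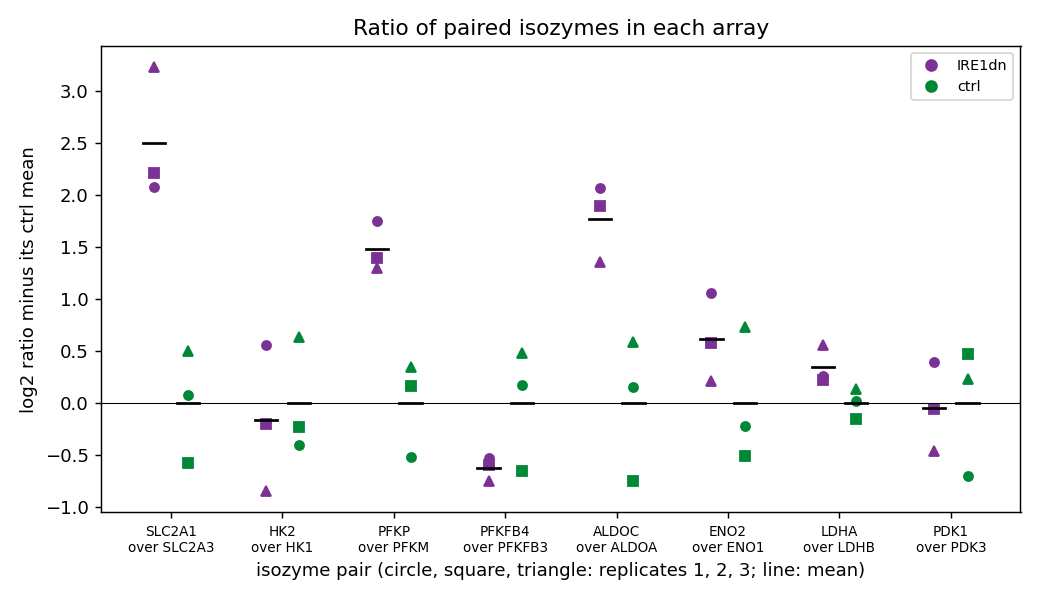
Log2 ratio of 8 isozyme pairs in each array, with the ctrl mean of the pair set to 0; purple points are IRE1dn arrays and green points ctrl arrays, symbols mark replicates and lines the means of 3 arrays. The IRE1dn points lie above all ctrl points for SLC2A1 over SLC2A3, PFKP over PFKM, ALDOC over ALDOA and LDHA over LDHB.

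The ctrl arrays differed among themselves in a pattern that many of these genes shared. Ctrl replicate 3 was the highest ctrl array for 21 of the 31 genes (67.7%), against 34.1% of all genes tested. Ctrl replicate 2 was the lowest for 16 of the 31 (51.6%), against 26.4% of all genes. For all 12 genes called higher in IRE1dn cells ctrl replicate 3 was the highest ctrl array, and for 9 of them ctrl replicate 2 was the lowest, the exceptions being PFKL, PFKP and PDK1. These genes share their arrays, so they are not independent observations. The median deviation of the 31 genes from their ctrl means was 0.27, 0.39 and 0.69 in IRE1dn replicates 1 to 3, and -0.05, -0.13 and 0.18 in ctrl replicates 1 to 3, on the log2 scale. The change of ALDOC was 2.69 without ctrl replicate 3 and 1.84 without ctrl replicate 2, and that of PFKFB3 was 2.11 and 1.37. Whether the ctrl arrays came from different clones is not given in the labels, and the part of clone in this spread was not tested. In cultures measured as a whole, fewer cells expressing a gene and less RNA per cell cannot be told apart.

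**Figure D5:**
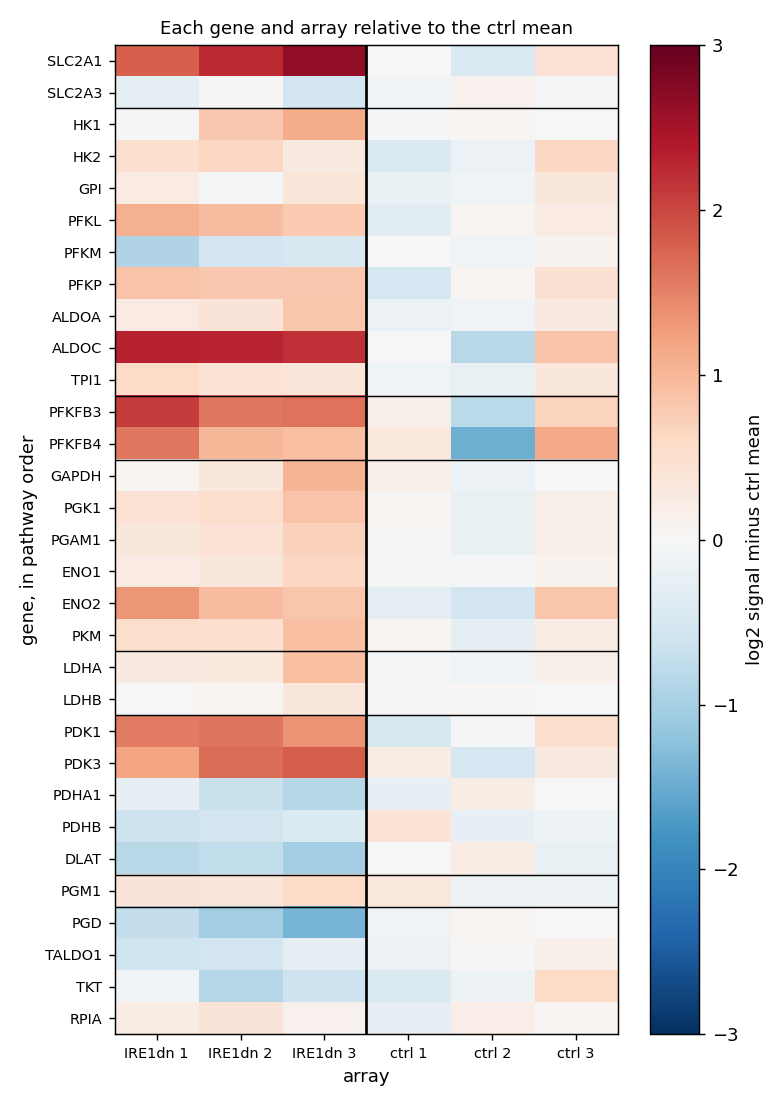
Log2 signal of each gene in each array minus the ctrl mean of that gene, with the 3 IRE1dn arrays left of the 3 ctrl arrays and genes in pathway order down the page; red is above and blue below the ctrl mean. The ctrl 3 column is mostly pale red and the ctrl 2 column partly pale blue for the genes that are red in the IRE1dn columns.

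Of 11 tested regulators of glucose metabolism, 4 were higher and 3 lower (36.4% and 27.3%, against 17.9% and 16.5% of all genes tested). EPAS1, the hypoxia-inducible factor 2 alpha subunit, had 205, 264 and 252 units in IRE1dn cells, against 633, 753 and 724 units in ctrl cells (log2 change -1.55, SE 0.17; limma adjusted p = 0.00026). EGLN1, the prolyl hydroxylase that marks these factors for decay, had 216, 262 and 225 units in IRE1dn cells, against 82.5, 93.2 and 117 units in ctrl cells (1.26, SE 0.19; adjusted p = 0.0014). TXNIP, an inhibitor of glucose uptake, had 553, 619 and 660.1 units in IRE1dn cells, against 385, 219 and 128 units in ctrl cells (1.45, SE 0.33; adjusted p = 0.0086). HIF1A, named after its values were seen, had 2311, 2545 and 3024 units in IRE1dn cells, against 1511, 1618 and 1602 units in ctrl cells (0.73, SE 0.14; adjusted p = 0.0041). The 2 hypoxia-inducible alpha subunits therefore changed in opposite directions at the RNA level, and protein was not measured. Unlike the uptake and glycolytic genes called higher, TXNIP had its lowest ctrl value in ctrl replicate 3.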

How the data were processed

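The deposited values are signal intensities per probe set, 22277 on each of 6 Affymetrix arrays. The authors' software was GCOS 1.2, per the submitters' processing notes; no source used here gives the summarisation method, background step or genome build. Intensities were already scaled by the authors, so a change shared by all transcripts would not be seen, and the number of arrays limits precision. Brightness also depends on the probes, so levels are not compared between genes.

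Signals were transformed to log2(signal + 1.75), the pseudocount being the 20th percentile of all values. It shrinks the fold changes of dim genes. Symbols came from the platform annotation, updated by gene identifier to GRCh38.p14 RefSeq (19052 of 19064 matched). The array's 62 control probe sets were left out as gene readings. The probe set with the highest mean stood for each of 11963 genes, and 7178 above the 40th percentile (13.0 units) were tested with limma 3.58.1 in R 4.3.3 (intensity trend, no covariate, two-sided, Benjamini-Hochberg over the 7178). Intervals are limma's 95% intervals. The test was also run on simulated data with independent noise and far fewer changed genes than were called here. That setting differs from these arrays, so the run does not vouch for the calls. Members and lists were chosen with earlier results of these data known. All members are named; of the wider lists, up to 3 genes past the threshold with the largest changes. Exact permutation tests used scipy 1.17.1. Alternatives were pseudocounts, filters, scalings, probe set choices, variance models, a block for the replicate number, and omission of single arrays; keeping control probe sets, and all alternatives for the wider lists, were added after the data were seen.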

Additional observations from a re-analysis of the deposited data

How the results depend on the processing

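Of 555 alternative values of the 31 genes, 482 kept their direction and their side of the threshold, 50 ended a call, 20 started one and 3 changed sign. SLC2A1, PFKL, ALDOC, PFKFB3, PDK1, PDK3, DLAT and PGD, 8 of the 17 called, kept their call under every alternative in which they were tested. With only the probe sets not marked _x or _s, SLC2A1 fell under the filter and was not tested. The number called higher was 9 to 15 over the alternatives with all arrays, and 7 to 15 with 1 array left out. The number called lower was 3 without a filter, 3 without the intensity trend, and 2 to 5 with 1 array left out. The causes were not tested. Signs turned for HK2 with the mean of its probe sets (-0.032), and with only unmarked probe sets for TPI1 (-0.75) and PDHA1 (0.12), where the probe set read is another one. Of 96 isozyme ratio alternatives 7 changed sign, all in pairs near 0. HK2 over HK1 was -0.52 to 0.18 with 1 array left out. PDK1 over PDK3 was -0.39 to 0.19 with 1 array left out, 0.11 with a pseudocount of 16 and 0.59 with the mean of the probe sets. Dim genes such as PFKFB2 and PFKFB4 are limited by signal over background.

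The replicate numbers did not pair the arrays: deviations of IRE1dn and ctrl arrays with the same number correlated at -0.10, 0.06 and 0.02, and IRE1dn replicate 1 correlated best with ctrl replicate 3 (0.07). With the replicate number as a block, 13 genes were called higher and 4 lower.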
